A study of Mus musculus with 12 samples.

Results

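Messenger RNA levels were compared between mouse B cells labelled as depleted of the histone demethylase Jmjd2a (gene symbol Kdm4a) and control B cells after 1 day in culture. The comparison holds 4 of the 12 arrays of the series, 2 labelled "Jmjd2a depleted cells" and 2 labelled "control group", all of day 1, and covers every probe set other than the platform's own controls, 45037 of 45101. The other 8 arrays, Jmjd2c-labelled cells of day 1 and all 3 groups at day 3, entered the same statistical model. All groups came from the spleens of C57BL/6 mice carrying the MD4 transgene, Tg(IghelMD4)4Ccg, which gives B cells an antigen receptor for the model antigen hen egg lysozyme, HEL. Cells positive for B220, a B cell surface marker, were taken with magnetic beads and stimulated with HEL, an antibody to CD40 and IL21, so the controls carry the transgene and received the same stimuli. The labels describe the depletion as siRNA in some places and as an sh virus in others, and they give no age for the mice. A day 0 named in the design was not analysed here. Total RNA was hybridised to Affymetrix mouse genome arrays, on which a probe set is a group of short oligonucleotides for 1 transcript, and the deposited values are on a log2 scale, so that a difference of 1 is a 2-fold change.

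Jmjd2a removes methyl groups from lysines of histone H3, among them the trimethyl mark of H3K9 that marks silent chromatin. A resting follicular B cell carries surface receptors such as CD21 and CD23 and quiescence factors such as Klf2. Engagement of its antigen receptor and of CD40 first induces immediate early genes such as Fos, after which the cell grows, replicates its DNA and divides. IL21 adds a signal that favours plasma cell differentiation.

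The titles call the 2 arrays of each group biological replicates but name no separate cultures or animals, so p-values measure only the spread between these arrays. Array medians at day 1 ranged from 5.199 to 5.208. Over all probe sets the mean correlation was 0.9977 between the day 1 controls, 0.9962 between the Jmjd2a-labelled arrays and 0.9897 between both groups. Jmjd2a-labelled replicate 2 read 12.2 on the 18S ribosomal RNA probe sets and 0.544 for the 3′ minus 5′ difference of beta-actin, a sign of RNA quality. The other 3 arrays of the comparison read 12.5 to 12.7 and 0.41 to 0.441. Day 3 arrays labelled Jmjd2a-depleted correlated with the day 1 controls at 0.9967 and with their own day 3 controls at 0.9849, and day 3 control replicate 2 stood apart from its pair, with a replicate SD of 0.259 in that group against 0.115 to 0.157 elsewhere. The day 3 arrays so labelled were thus closer to the day 1 controls than to the controls of their own day. The same held for the Jmjd2c-labelled day 3 arrays, at 0.99545 with the day 1 and 0.98765 with the day 3 controls. Whether samples or days were exchanged was not tested, and an exchange would change what each difference between labels or days means. Jmjd2a-labelled replicate 1 correlated at 0.9979 with Jmjd2c-labelled replicate 1 of day 1, more than with its own replicate (0.9962).

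The transcript named by the label was not lower on the Jmjd2a-labelled arrays. Kdm4a, by the brightest of its own probe sets, read 7.90 and 7.92 on the control arrays and 7.94 and 8.09 on the Jmjd2a-labelled arrays. The difference was 0.11 (95% interval -0.09 to 0.30, limma adjusted p = 0.62), and the groups did not overlap, with the Jmjd2a-labelled arrays the higher. A dim probe set of Kdm4a differed by -0.06 (adjusted p = 0.88), with overlapping groups. The labels do not say which stretch of the transcript was targeted, and protein was not measured. Groups are therefore named by their labels, and every direction below is that of arrays so labelled.

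The relatives of Kdm4a in the same enzyme family did not pass the test over all 12 arrays either, at an adjusted p threshold of 0.05 used throughout. Kdm4c, an H3K9 demethylase and the other target of the series, read 7.78 and 7.84 on the control arrays and 8.005 and 8.09 on the Jmjd2a-labelled arrays (0.24 ± 0.12, difference ± SE of the moderated model as in all values so written, adjusted p = 0.31), and passed with day 3 control replicate 2 left out of the model (adjusted p = 0.031), with both Jmjd2a-labelled arrays the higher. Kdm4b read 6.55 and 6.60 in the control and 6.74 and 6.80 in the Jmjd2a-labelled replicates (0.19, adjusted p = 0.36). Kdm4d, a dim probe set, read 3.53 and 3.37 in Jmjd2a-labelled cells and 3.69 and 3.46 in controls and differed by -0.12 (adjusted p = 0.74).

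Of all 45037 probe sets, 3366 passed (7.47%), of which 1904 were higher (4.23%) and 1462 lower (3.25%) on the Jmjd2a-labelled arrays. Rises were large and falls were small. At least 2-fold, 617 probe sets rose (1.37%) and 6 fell (0.0133%), at least 4-fold 156 rose (0.346%) and 0 fell, and at least 8-fold 58 rose (0.129%). The median rise among those called was 0.76 and the median fall -0.38, against a median of -0.04 over all probe sets. Groups failed to overlap at 9089 probe sets in the higher direction (20.2%) and 14797 in the lower (32.9%). The plot of differences by control level shows the rises spread over dim and bright probe sets and the falls mostly over bright ones: 22% of probe sets that rose lay below the median level in controls, and 3.63% of those that fell. Level on an array is a property of the probe set as well as of the transcript.

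**Figure D1:**
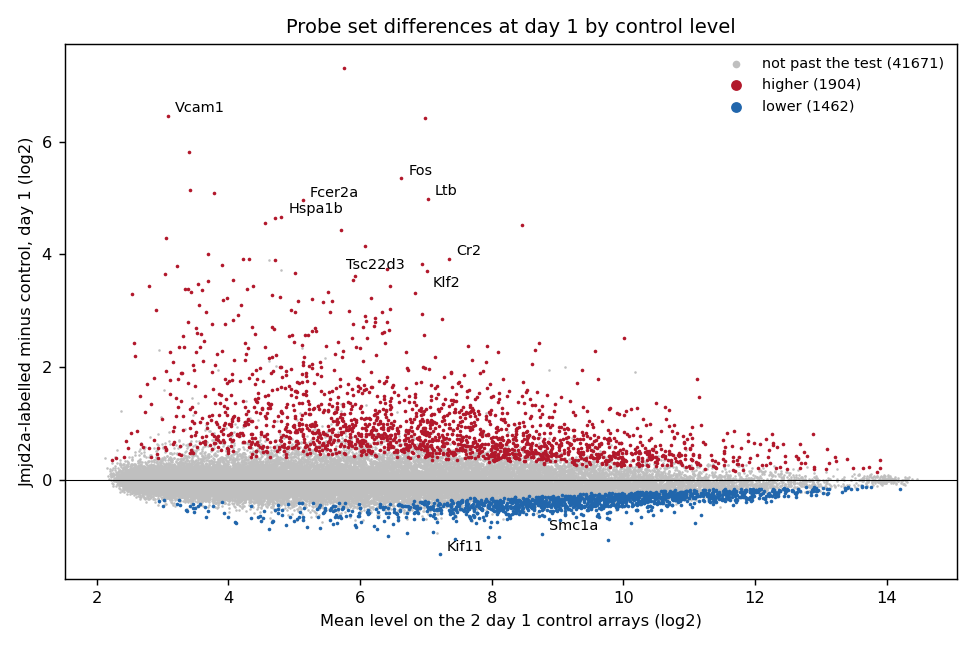
Each point is 1 of 45037 probe sets. The x axis is its mean level on the 2 control arrays of day 1 (log2) and the y axis the Jmjd2a-labelled minus control difference (log2). Red points (1904) were higher and blue points (1462) lower past the test, and blue points reach -1.32 while red points reach 7.30.

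The number of calls rests on few arrays. Leaving out 1 array of the comparison leaves a group of 1 and a larger standard error, so calls can be lost where differences stay alike. Without control replicate 1, 910 rose and 252 fell, and without control replicate 2, 845 rose and 198 fell. Without Jmjd2a-labelled replicate 1, 1020 rose and 382 fell, and without replicate 2, 1825 rose and 1119 fell. With day 3 control replicate 2 left out of the model, 3134 rose and 3570 fell. Each gene below is represented by the brightest of its own probe sets over the 12 arrays. Of 18193 such genes 5.72% rose and 4.6% fell, with a median difference of -0.04, and these are the values against which the counts for each group of genes can be read.

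Part of the immediate early genes rose on the Jmjd2a-labelled arrays, 4 of 13 AP-1 genes and 13 of 26 of the Egr, Nr4a, Ier and Dusp group. The largest rise among them was that of Fos, the AP-1 subunit whose transcription is switched on within minutes of receptor signalling. Fos read 6.53 and 6.73 in controls and 12.005 and 11.94 in Jmjd2a-labelled cells, which is 40.7-fold higher (5.35 ± 0.16, adjusted p = 4.5e-09). Its relative Fosb read 6.66 and 6.60 on the Jmjd2a-labelled against 3.70 and 3.61 on the control arrays (2.98 ± 0.22, adjusted p = 1.1e-05). Jun, the partner of Fos in AP-1, read 9.28 and 9.26 in the control and 10.40 and 10.44 in the Jmjd2a-labelled replicates (1.15 ± 0.17, adjusted p = 0.0015). In all 3 genes the replicates of each group lay close together and the groups were far apart. Atf3, a stress-induced member, differed by 0.68 (adjusted p = 0.0071, 0.091 without control replicate 2). Batf, which works with Irf4 in activated B cells, fell from 10.98 and 11.02 to 10.59 and 10.75 (-0.33, adjusted p = 0.0089, 0.061 without control replicate 1, 0.11 without control replicate 2 and 0.086 without Jmjd2a-labelled replicate 1). Junb, at 8.80 and 8.83 in Jmjd2a-labelled cells and 8.84 and 8.95 in controls, did not pass (-0.08). In all, 4 of 13 measured AP-1 genes rose and 1 fell, with a median of 0.22.

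The 250 bases upstream of the annotated start of Fos are shown because Fos had the largest rise of the measured AP-1 genes. Windows of genes from 3 further groups, chosen after their values were seen except where stated, are printed with those groups for contrast. Sequences are from RefSeq on build GRCm38.p6 (chr12:85473640-85473889, plus strand), written 5′ to 3′ along the gene. Capitals mark TGACG, the core of the cAMP response element, searched on both strands, and TATAAA, the TATA box.
Fos: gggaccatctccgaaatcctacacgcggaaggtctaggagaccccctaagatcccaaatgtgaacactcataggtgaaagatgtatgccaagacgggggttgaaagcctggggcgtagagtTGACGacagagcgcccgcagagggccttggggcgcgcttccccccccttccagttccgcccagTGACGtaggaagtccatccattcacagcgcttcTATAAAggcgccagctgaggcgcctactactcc
TGACG begins 129 and 66 bases before the start and TATAAA 33 bases before it. In windows of 300 bases, 250 upstream and 50 downstream, TGACG on either strand occurred in 8 of 12 AP-1 genes with an entry (66.7%) and in 23% of all 27025 genes with an entry. Of the Egr, Nr4a, Ier and Dusp genes with an entry, 11 of 19 held it (57.9%), and 4 held a CArG box (21.1%, against 1.81% of all genes), the motif read by serum response factor. The CArG box was in 0 of the 12 AP-1 windows, and sequence outside these windows, Fos included, was not searched. The AP-1 site TGANTCA was in 0 of the 12 and in 1 of the 19 (5.26%), against 8.97% of all genes, and the full element TGACGTCA, which contains TGACG, in 1 of the 12 (8.33%) and 3 of the 19 (15.8%), against 2.03%. A match in letters is a description and not evidence of binding.

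Among other early response genes, some inhibitors of MAP kinase signalling and of mRNA stability rose, while the Egr and Nr4a factors did not rise past the test. Dusp1, a phosphatase of MAP kinases, read 8.12 and 8.08 in controls and 10.28 and 10.45 in Jmjd2a-labelled cells (2.26 ± 0.17, adjusted p = 1.1e-05). Dusp6, a phosphatase of ERK, read 9.21 and 8.74 on the Jmjd2a-labelled against 6.90 and 7.08 on the control arrays (1.98 ± 0.17, adjusted p = 3.4e-05). Ier5, an early response gene, read 9.90 and 9.90 in the control and 11.26 and 10.91 in the Jmjd2a-labelled replicates (1.19 ± 0.10, adjusted p = 3.2e-05). Zfp36, which binds AU-rich elements and hastens mRNA decay, read 10.75 and 10.28 in Jmjd2a-labelled cells and 9.06 and 9.06 in controls (1.46 ± 0.16, adjusted p = 0.00022). None of these 4 genes had overlapping groups.

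Egr1, a zinc-finger factor induced through the B cell receptor, read 10.51 and 10.65 in controls and 10.40 and 10.82 in Jmjd2a-labelled cells, with overlapping groups (0.03, adjusted p = 0.96). Egr2 fell from 11.97 and 11.91 to 11.48 and 11.67 (-0.37, adjusted p = 0.018, 0.16 without control replicate 1, 0.095 without control replicate 2 and 0.17 without Jmjd2a-labelled replicate 1). Nr4a1, the orphan receptor Nur77, read 8.90 and 9.41 on the Jmjd2a-labelled against 8.59 and 8.61 on the control arrays and did not pass (0.55, adjusted p = 0.35). Of 26 measured genes of this group 13 rose and 1 fell, with a median of 0.37. The numbers that rose were 8, 7, 10 and 13 in turn without control replicates 1 and 2 and Jmjd2a-labelled replicates 1 and 2, and those that fell 0, 0, 0 and 4.

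Most measured factors that hold lymphocytes at rest rose. Klf2, which keeps lymphocytes quiescent and drives S1pr1, read 6.99 and 7.05 in the control and 11.20 and 10.26 in the Jmjd2a-labelled replicates (3.71 ± 0.27, 13.1-fold, adjusted p = 8.3e-06). Klf4 read 8.77 and 8.19 in Jmjd2a-labelled cells and 5.17 and 5.37 in controls (3.21 ± 0.23, adjusted p = 6.9e-06). Tsc22d3, the glucocorticoid-induced leucine zipper, read 6.94 and 6.94 in controls and 11.15 and 10.39 in Jmjd2a-labelled cells (3.83 ± 0.20, adjusted p = 6.9e-07). Btg1, an antiproliferative factor, read 13.11 and 13.04 on the Jmjd2a-labelled against 12.24 and 12.27 on the control arrays (0.82 ± 0.05, adjusted p = 1e-06).

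S1pr1, the receptor by which lymphocytes leave lymphoid tissue, read 5.72 and 6.07 in the control and 8.43 and 8.87 in the Jmjd2a-labelled replicates (2.76 ± 0.26, adjusted p = 5.7e-05). Txnip, an inhibitor of glucose uptake, read 10.24 and 9.67 in Jmjd2a-labelled cells and 8.10 and 8.23 in controls (1.79, adjusted p = 2.7e-05), and Pik3ip1, an inhibitor of PI3 kinase, read 5.92 and 6.18 in controls and 8.52 and 7.81 in Jmjd2a-labelled cells (2.11, adjusted p = 3.6e-05). Of 19 measured quiescence genes, 12 rose and 0 fell, with a median of 0.82, and 11, 11, 12 and 12 rose in turn without control replicates 1 and 2 and Jmjd2a-labelled replicates 1 and 2. Kdm6b, a demethylase of H3K27 that is also on this list, read 8.83 and 8.85 on the Jmjd2a-labelled against 8.98 and 9.03 on the control arrays (-0.17, adjusted p = 0.34). Klf2, Klf4, Tsc22d3, Txnip and Pik3ip1 were higher in Jmjd2a-labelled replicate 1 than in replicate 2, and S1pr1 was lower.

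Inducible Hsp70 genes rose, while 4 other chaperone genes fell. Hspa1b, an inducible Hsp70, read 5.84 and 6.32 in the control and 10.85 and 9.61 in the Jmjd2a-labelled replicates (4.15 ± 0.51, adjusted p = 0.00043), and its near-identical neighbour Hspa1a read 7.87 and 6.84 in Jmjd2a-labelled cells and 4.75 and 4.63 in controls (2.67 ± 0.42, adjusted p = 0.0024). Because these copies share sequence, the probe sets may not separate them. Both Jmjd2a-labelled arrays were above both controls, with replicate 1 the higher by more than 1 unit. The mitochondrial chaperonin Hspd1 fell from 13.09 and 13.14 to 12.89 and 12.87 (-0.24, adjusted p = 0.0035, 0.064 without control replicate 2). Dnajb1, a co-chaperone induced by heat-shock factor, read 10.44 and 10.43 in controls and 10.75 and 10.34 in Jmjd2a-labelled cells and did not pass (0.11). The counts were 2 risen and 4 fallen of 21 measured genes, with a median of -0.11, and 1, 0, 1 and 3 fell in turn without control replicates 1 and 2 and Jmjd2a-labelled replicates 1 and 2.

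In the upstream window of Hspa1b (chr17:34959239-34959488, minus strand, GRCm38.p6, RefSeq), capitals mark GAANNTTC, the unit of the heat-shock element, which reads the same on both strands.
Hspa1b: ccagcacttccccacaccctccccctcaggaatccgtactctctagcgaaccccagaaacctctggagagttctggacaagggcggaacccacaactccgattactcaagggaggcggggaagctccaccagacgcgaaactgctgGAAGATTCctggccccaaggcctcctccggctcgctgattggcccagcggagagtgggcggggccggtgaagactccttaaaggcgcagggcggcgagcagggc
The match GAAGATTC begins 104 bases before the start. Of 18 heat-shock genes with an entry 9 held GAANNTTC (50%), against 9.04% of all genes, and the group includes genes that rose, fell and did not pass.

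Genes of antigen presentation and 13 of 23 genes of the B cell receptor and its co-receptors rose. Fcer2a, the low-affinity IgE receptor CD23, read 10.42 and 9.75 on the Jmjd2a-labelled against 5.23 and 5.02 on the control arrays (4.96 ± 0.21, 31.1-fold, adjusted p = 1.5e-07). Cr2, the complement receptor CD21, read 7.35 and 7.34 in the control and 11.09 and 11.45 in the Jmjd2a-labelled replicates (3.92 ± 0.19, 15.2-fold, adjusted p = 3e-07). Ms4a1, which encodes CD20, read 13.10 and 12.71 in Jmjd2a-labelled cells and 11.13 and 11.10 in controls (1.79 ± 0.10, adjusted p = 1.2e-06). Cd79b, a signalling chain of the receptor, read 11.16 and 11.15 in controls and 12.84 and 12.41 in Jmjd2a-labelled cells (1.47 ± 0.10, adjusted p = 3.5e-06). For each of these genes the control replicates lay within 0.3 of each other and the Jmjd2a-labelled arrays well above both.

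Its partner chain Cd79a read 8.40 and 7.73 on the Jmjd2a-labelled against 7.04 and 6.98 on the control arrays (1.06, adjusted p = 0.0024). Siglecg and Cd22, inhibitory lectins of the receptor complex, differed by 1.93 (adjusted p = 2e-05) and 0.64 (adjusted p = 0.00037). The kinase Syk read 9.56 and 9.53 in the control and 10.77 and 10.20 in the Jmjd2a-labelled replicates (0.94, adjusted p = 0.0018), whereas Btk, at 9.77 and 9.66 in Jmjd2a-labelled cells and 9.47 and 9.57 in controls, did not pass (0.19, adjusted p = 0.19, 0.048 without day 3 control replicate 2). Fcgr2b, the inhibitory Fc receptor, read 12.39 and 12.43 in controls and 12.32 and 12.30 in Jmjd2a-labelled cells (-0.10, adjusted p = 0.14). Of 23 measured receptor and co-receptor genes, 13 rose and 0 fell, with a median of 0.38, and 11, 11, 11 and 13 rose in turn without control replicates 1 and 2 and Jmjd2a-labelled replicates 1 and 2.

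Every one of the 12 measured genes of MHC class II presentation rose, with a median of 0.82. Without control replicate 1, control replicate 2 or Jmjd2a-labelled replicate 1, 10 rose, and without Jmjd2a-labelled replicate 2, 12. H2-Ob, a chain of the H2-O inhibitor of peptide loading, read 11.40 and 10.87 on the Jmjd2a-labelled against 8.71 and 8.72 on the control arrays (2.42 ± 0.13, adjusted p = 9.6e-07). H2-Oa, its partner, read 7.86 and 7.99 in the control and 10.37 and 10.23 in the Jmjd2a-labelled replicates (2.37 ± 0.19, adjusted p = 1.9e-05). The classical chain H2-Aa read 13.79 and 13.75 in Jmjd2a-labelled cells and 13.40 and 13.41 in controls (0.37 ± 0.03, adjusted p = 1.3e-05), a smaller difference on a far brighter probe set.

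The peptide-loading chains H2-DMa and H2-DMb2 differed by 1.26 (adjusted p = 0.00012) and 1.25 (adjusted p = 5.2e-05). Ciita, the coactivator that switches on class II genes, read 7.78 and 7.62 in controls and 9.17 and 8.76 in Jmjd2a-labelled cells (1.26 ± 0.17, adjusted p = 0.00091). Class II genes are transcribed in macrophages and dendritic cells as well as in B cells, and markers of macrophages moved with them, as given below. In bulk RNA, fewer cells of a type and less RNA per cell cannot be told apart.

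The upstream window of H2-Ob, whose rise was the largest of the 12 class II genes, lies at chr17:34238655-34238904, plus strand (GRCm38.p6, RefSeq). Capitals mark CCAAT in either orientation, the core read by the factor NF-Y that takes part in class II promoters. The second motif searched there, TGACG, was not in these letters.
H2-Ob: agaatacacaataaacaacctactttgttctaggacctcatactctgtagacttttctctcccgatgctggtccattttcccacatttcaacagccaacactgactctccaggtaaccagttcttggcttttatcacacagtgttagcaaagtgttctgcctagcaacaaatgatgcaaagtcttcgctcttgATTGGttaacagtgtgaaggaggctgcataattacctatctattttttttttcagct
The match, ATTGG, begins 57 bases before the start. CCAAT on either strand was found in 7 of 9 class II genes with an entry (77.8%) and in 41.1% of all genes. TGACG was found in 2 of the 9 (22.2%) and in 23% of all genes.

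**Figure D2:**
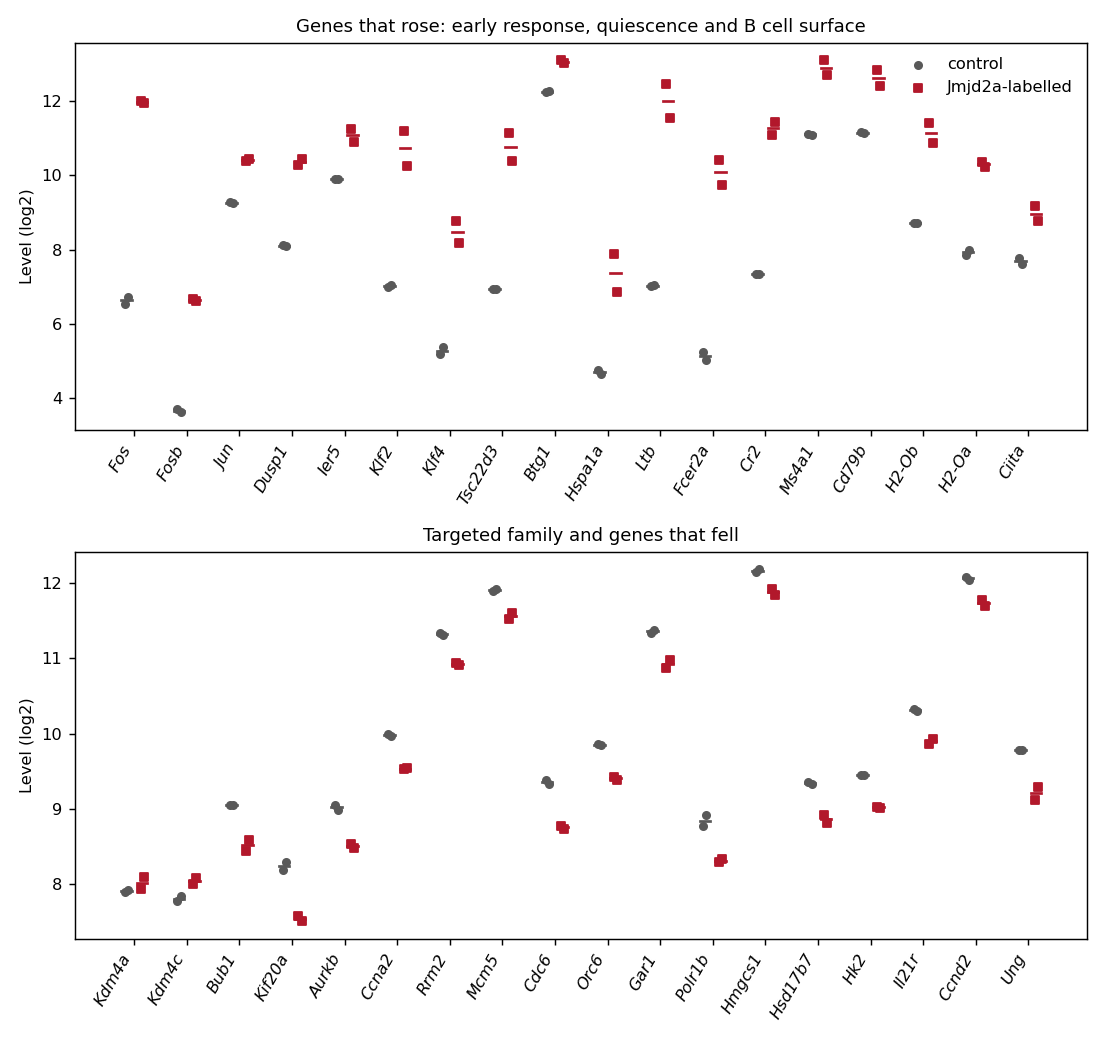
Levels (log2, y axis) of 36 genes on each day 1 array, with control arrays in grey circles, Jmjd2a-labelled arrays in red squares and a bar at each group's mean of 2 arrays. In the upper panel all 18 genes are higher on both Jmjd2a-labelled arrays. In the lower panel Kdm4a and Kdm4c, which did not pass, sit slightly above control and the other 16 genes below.

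Of the transcription factors that set B cell and plasma cell identity, 5 of 24 rose and 1 fell. Prdm1, the driver of plasma cell fate, read 7.24 and 7.63 on the Jmjd2a-labelled against 7.52 and 7.42 on the control arrays, with overlapping groups (-0.04, adjusted p = 0.95). Pax5, the keeper of B cell identity, read 7.20 and 7.09 in the control and 7.36 and 6.94 in the Jmjd2a-labelled replicates (0.01, adjusted p = 0.99). Bach2, which holds back Prdm1, read 11.50 and 11.43 in Jmjd2a-labelled cells and 11.61 and 11.53 in controls (-0.10, adjusted p = 0.29), and Xbp1 read 11.71 and 11.79 in controls and 11.84 and 11.90 in Jmjd2a-labelled cells (0.12, adjusted p = 0.28).

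Irf4, needed for plasma cells and for class switching, read 9.51 and 9.80 on the Jmjd2a-labelled against 9.19 and 9.14 on the control arrays (0.49 ± 0.10, adjusted p = 0.012, 0.08 without control replicate 1, 0.12 without control replicate 2 and 0.082 without Jmjd2a-labelled replicate 2). Pou2af1, an octamer coactivator, read 12.11 and 12.11 in the control and 12.36 and 12.38 in the Jmjd2a-labelled replicates (0.26, adjusted p = 0.0054, 0.058 without control replicate 1 and 0.061 without control replicate 2). Spib differed by 0.86 (adjusted p = 0.019, 0.13 without control replicate 1, 0.13 without control replicate 2 and 0.17 without Jmjd2a-labelled replicate 1). Zbtb32, a repressor of class II genes, differed by -0.42 (adjusted p = 0.0074, 0.085 without control replicate 1, 0.073 without control replicate 2 and 0.057 without Jmjd2a-labelled replicate 1). The 24 measured factors gave 5 rises and 1 fall, with a median of 0.04, and 0, 0, 2 and 4 rose in turn without control replicates 1 and 2 and Jmjd2a-labelled replicates 1 and 2, while 0, 0, 0 and 1 fell.

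Products of antibody-secreting cells went both ways. Ighm, the mu heavy chain, read 14.31 and 14.23 in Jmjd2a-labelled cells and 13.88 and 13.93 in controls (0.36 ± 0.04, adjusted p = 0.0003). Jchain, which joins IgM into pentamers, read 11.14 and 11.22 in controls and 11.96 and 12.34 in Jmjd2a-labelled cells (0.97 ± 0.15, adjusted p = 0.0023), and Mzb1, a chaperone of IgM assembly, read 12.16 and 12.07 on the Jmjd2a-labelled against 11.51 and 11.58 on the control arrays (0.57 ± 0.07, adjusted p = 0.0006). Sdc1, the plasma cell surface marker CD138, fell from 10.54 and 10.63 to 10.03 and 10.31 (-0.41 ± 0.09, adjusted p = 0.015, 0.068 without control replicate 1, 0.16 without control replicate 2 and 0.13 without Jmjd2a-labelled replicate 1). Of 16 measured members 6 rose and 1 fell, with a median of 0.34. The rises numbered 4, 4, 4 and 6 and the falls 0, 0, 0 and 1 in turn without control replicates 1 and 2 and Jmjd2a-labelled replicates 1 and 2.

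Of the chemokines and homing receptors, 12 of 22 rose. Itga4, the alpha 4 integrin that binds Vcam1, read 6.41 and 6.41 in the control and 9.45 and 8.97 in the Jmjd2a-labelled replicates (2.80 ± 0.14, adjusted p = 5.1e-07). Cxcr5, which draws B cells into follicles, read 10.13 and 10.01 in Jmjd2a-labelled cells and 9.14 and 9.16 in controls (0.92 ± 0.09, adjusted p = 7.7e-05). Ccr7, which draws them to the T cell zone, read 7.10 and 7.23 in controls and 9.06 and 8.58 in Jmjd2a-labelled cells (1.66 ± 0.17, adjusted p = 0.00012). Ccl5, a chemokine also made by NK and T cells, read 8.55 and 8.03 on the Jmjd2a-labelled against 6.08 and 5.81 on the control arrays (2.35 ± 0.17, adjusted p = 7.1e-06).

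Cxcr4, which retains plasma cells in the marrow, read 7.54 and 7.48 in the control and 9.51 and 8.97 in the Jmjd2a-labelled replicates (1.73 ± 0.17, adjusted p = 9.9e-05). Ccl3, a chemokine that activated B cells release, fell from 11.55 and 11.54 to 11.08 and 11.26 (-0.37 ± 0.06, adjusted p = 0.0022). The list gave 12 rises and 2 falls among 22 measured genes, with a median of 0.43. Without control replicate 1 there were 8 rises, and in each of the 3 settings without a control replicate or Jmjd2a-labelled replicate 1 there was 1 fall.

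Lymphotoxin genes and 4 others rose among the genes of CD40 and BAFF signalling. Ltb, the membrane lymphotoxin that builds follicular stroma, read 12.48 and 11.55 in Jmjd2a-labelled cells and 7.02 and 7.04 in controls (4.99 ± 0.22, 31.7-fold, adjusted p = 2.1e-07). Lta, the soluble lymphotoxin, read 4.94 and 5.46 in controls and 7.18 and 6.70 in Jmjd2a-labelled cells (1.74 ± 0.18, adjusted p = 0.00012). Icosl, the ligand by which B cells engage follicular helper T cells, read 7.24 and 7.85 on the Jmjd2a-labelled against 5.89 and 6.04 on the control arrays (1.57 ± 0.17, adjusted p = 0.00017), and Traf5, an adaptor of TNF receptors, read 7.70 and 7.78 in the control and 9.03 and 8.73 in the Jmjd2a-labelled replicates (1.13 ± 0.16, adjusted p = 0.00099). Cd40 itself, at 10.54 and 10.45 in Jmjd2a-labelled cells and 10.49 and 10.42 in controls, had overlapping groups (0.04, adjusted p = 0.82). Of 20 measured genes 6 rose and 0 fell, with a median of 0.01, and 3 fell without Jmjd2a-labelled replicate 2.

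The NF-kB and IL21 pathway lists gave calls whose number depended on 1 array of day 3. Birc3, an NF-kB target that restrains the alternative pathway, read 10.90 and 10.96 in controls and 11.63 and 11.51 in Jmjd2a-labelled cells (0.65 ± 0.06, adjusted p = 9.5e-05), and Nfkbia, the classical inhibitor, read 12.80 and 12.76 on the Jmjd2a-labelled against 12.88 and 12.84 on the control arrays and did not pass (-0.08, adjusted p = 0.18). The NF-kB list gave 2 rises and 1 fall of 16, with a median of 0.05, and 1, 1, 1 and 2 rises and 0, 0, 0 and 1 falls in turn without control replicates 1 and 2 and Jmjd2a-labelled replicates 1 and 2. Il21r, the receptor for the cytokine added to the culture, fell from 10.32 and 10.30 to 9.86 and 9.93 (-0.42 ± 0.06, 74.9% of control, adjusted p = 0.0011). Socs3, a feedback inhibitor of STAT3 signalling, fell from 12.82 and 12.88 to 12.57 and 12.69 (-0.22, adjusted p = 0.013, 0.053 without control replicate 1, 0.16 without control replicate 2 and 0.12 without Jmjd2a-labelled replicate 1). Stat3 read 11.28 and 11.07 in the control and 11.33 and 11.08 in the Jmjd2a-labelled replicates (0.04, adjusted p = 0.94). Of 17 measured genes in that pathway 0 rose and 3 fell, with a median of -0.22, and 1, 1, 1 and 3 fell in turn without control replicates 1 and 2 and Jmjd2a-labelled replicates 1 and 2. With day 3 control replicate 2 left out of the model, 5 NF-kB genes rose and 3 fell, and of the IL21 pathway 1 rose and 9 fell.

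Of the mitotic genes listed, 21 of 33 fell, none by as much as 2-fold on its brightest probe set. Kif20a, a kinesin of cytokinesis, read 7.58 and 7.51 in Jmjd2a-labelled cells and 8.18 and 8.30 in controls (-0.70 ± 0.10, 61.7% of control, adjusted p = 0.0011). Bub1, a spindle checkpoint kinase, read 9.06 and 9.05 in controls and 8.44 and 8.59 in Jmjd2a-labelled cells (-0.54 ± 0.08, 68.8% of control, adjusted p = 0.0016). Ccna2, the S phase and mitotic cyclin A, read 9.52 and 9.54 on the Jmjd2a-labelled against 9.996 and 9.97 on the control arrays (-0.45 ± 0.07, 73.4% of control, adjusted p = 0.003). These 3 genes passed without any single array of the comparison.

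Aurkb, the kinase of the chromosomal passenger complex, read 9.06 and 8.99 in the control and 8.53 and 8.47 in the Jmjd2a-labelled replicates (-0.52 ± 0.09, adjusted p = 0.0043, 0.063 without control replicate 1). Cdk1, the mitotic kinase, read 9.52 and 9.62 in Jmjd2a-labelled cells and 9.96 and 10.003 in controls (-0.41, adjusted p = 0.0083, 0.062 without control replicate 1, 0.097 without control replicate 2 and 0.078 without Jmjd2a-labelled replicate 1). Of 33 measured mitotic genes 21 fell and 0 rose, with a median of -0.40 and a range from -0.70 to -0.01. In 32 of them both Jmjd2a-labelled arrays lay below both controls, as they did for 32.9% of all probe sets. Fewer passed the test without any 1 array, which leaves 1 array in a group. The list median was then -0.41, -0.39, -0.39 and -0.39 in turn without control replicates 1 and 2 and Jmjd2a-labelled replicates 1 and 2.

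The upstream windows of Bub1, selected by rule among the largest mitotic falls, and of Kif2c are printed to compare positions of CCAAT and of TTTGAA, the cell cycle homology region that the DREAM complex reads. Bub1 lies at chr2:127831860-127832109, minus strand and Kif2c, a microtubule-depolymerising kinesin, at chr4:117178773-117179022, minus strand, both on GRCm38.p6 from RefSeq. Capitals mark either motif in either orientation.
Bub1: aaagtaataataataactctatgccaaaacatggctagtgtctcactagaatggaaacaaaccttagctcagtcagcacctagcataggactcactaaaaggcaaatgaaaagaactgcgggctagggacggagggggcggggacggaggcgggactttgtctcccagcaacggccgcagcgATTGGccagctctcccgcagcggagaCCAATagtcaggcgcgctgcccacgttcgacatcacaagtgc
Kif2c: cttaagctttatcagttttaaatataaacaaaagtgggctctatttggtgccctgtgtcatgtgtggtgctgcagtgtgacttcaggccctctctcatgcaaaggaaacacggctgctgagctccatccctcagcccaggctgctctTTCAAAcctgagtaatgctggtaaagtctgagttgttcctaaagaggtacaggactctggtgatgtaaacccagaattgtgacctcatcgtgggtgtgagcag
In Bub1, ATTGG begins 68 and CCAAT 42 bases before the start. In Kif2c, TTCAAA, the reverse of TTTGAA, begins 103 bases before it. In 300-base windows TTTGAA on either strand was found in 21 of 26 mitotic genes with an entry (80.8%) against 20.2% of all genes, and CCAAT in 20 (76.9%) against 41.1%. Kif2c fell from 8.19 and 8.27 to 7.77 and 7.66 (-0.52, adjusted p = 0.0089, 0.058 without control replicate 1, 0.11 without control replicate 2 and 0.053 without Jmjd2a-labelled replicate 2).

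Of the DNA replication genes, 24 of 34 fell. Rrm2, a subunit of ribonucleotide reductase, read 11.34 and 11.31 in controls and 10.94 and 10.92 in Jmjd2a-labelled cells (-0.39 ± 0.05, 76.1% of control, adjusted p = 0.0004). Mcm5, of the replicative helicase, read 11.52 and 11.60 on the Jmjd2a-labelled against 11.89 and 11.91 on the control arrays (-0.34 ± 0.04, adjusted p = 0.0006). Orc6, of the origin recognition complex, read 9.86 and 9.85 in the control and 9.42 and 9.39 in the Jmjd2a-labelled replicates (-0.45 ± 0.07, adjusted p = 0.0014). Cdc6, a helicase loader, read 8.77 and 8.73 in Jmjd2a-labelled cells and 9.38 and 9.33 in controls (-0.60 ± 0.10, adjusted p = 0.0041, 0.057 without control replicate 1).

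Of 34 measured replication genes 24 fell and 0 rose, with a median of -0.38. Both Jmjd2a-labelled arrays lay below both controls in 33, and in 32.9% of all probe sets. The number that fell was 7, 8, 12 and 17 in turn without control replicates 1 and 2 and Jmjd2a-labelled replicates 1 and 2. Promoter windows of this group held the E2F motif TTTCCCGC in 6 of 28 genes (21.4%, against 1.24% of all genes) and TTTGGCGC in 5 (17.9%, against 0.585%), on either strand.

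Brakes and drivers of the cell cycle moved in part. Cdkn1b, the inhibitor p27, read 8.60 and 8.67 in controls and 9.57 and 9.21 in Jmjd2a-labelled cells (0.75 ± 0.15, adjusted p = 0.0089, 0.089 without control replicate 1, 0.071 without control replicate 2 and 0.11 without Jmjd2a-labelled replicate 1), and the list of kinase inhibitors gave 1 rise and 1 fall of 8 genes, with a median of -0.01. Without either control replicate or Jmjd2a-labelled replicate 1 it gave 0 of each, and without Jmjd2a-labelled replicate 2 it gave 1 rise and 0 falls. Ccnd2, the D cyclin induced in activated B cells, fell from 12.08 and 12.04 to 11.78 and 11.70 (-0.32 ± 0.06, adjusted p = 0.0043, 0.063 without control replicate 1). Mxd4, which competes with Myc for Max, read 8.31 and 7.76 on the Jmjd2a-labelled against 6.73 and 6.96 on the control arrays (1.19 ± 0.16, adjusted p = 0.00088). Myc itself, at 10.36 and 10.30 in the control and 10.68 and 10.51 in the Jmjd2a-labelled replicates, did not pass (0.27, adjusted p = 0.14, 0.034 with array weights). The Myc-Max list gave 3 rises and 1 fall of 15, with a median of 0.22, and 2, 1, 1 and 3 rises and 0, 1, 1 and 1 falls in turn without control replicates 1 and 2 and Jmjd2a-labelled replicates 1 and 2.

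Of the ribosome biogenesis factors 15 of 29 fell, while 1 of 24 ribosomal proteins passed. Gar1, which takes part in pseudouridylation of ribosomal RNA, read 10.86 and 10.98 in Jmjd2a-labelled cells and 11.34 and 11.37 in controls (-0.43 ± 0.06, adjusted p = 0.0014). Polr1b, a core subunit of RNA polymerase I, read 8.77 and 8.91 in controls and 8.29 and 8.33 in Jmjd2a-labelled cells (-0.53 ± 0.09, adjusted p = 0.0047, 0.084 without control replicate 2). Dkc1, the pseudouridine synthase, read 11.53 and 11.55 on the Jmjd2a-labelled against 11.80 and 11.82 on the control arrays (-0.27, adjusted p = 0.0073, 0.065 without control replicate 1, 0.085 without control replicate 2 and 0.053 without Jmjd2a-labelled replicate 1). Of 29 measured factors 15 fell and 0 rose, with a median of -0.25. In 28, and in 32.9% of all probe sets, both Jmjd2a-labelled arrays were below both controls. Fewer fell past the test without any 1 array. The list median was then -0.26, -0.25, -0.23 and -0.25 in turn without control replicates 1 and 2 and Jmjd2a-labelled replicates 1 and 2. Of 24 cytosolic ribosomal proteins 0 rose and 1 fell, with a median of 0.01. The 1 that fell, Rps6, differed by -0.23 (adjusted p = 0.028, 0.21 without control replicate 1, 0.15 without control replicate 2, 0.13 without Jmjd2a-labelled replicate 1 and 0.068 without Jmjd2a-labelled replicate 2).

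Translation initiation factors gave 2 rises and 7 falls of 27, with a median of -0.11. Eif4a2, a helicase of the cap-binding complex, rose from 12.49 and 12.41 to 12.82 and 12.70 (0.31 ± 0.05, adjusted p = 0.0021, 0.073 with no intensity trend in the model), and Eif2b1, of the exchange factor for eIF2, fell from 9.74 and 9.68 to 9.32 and 9.37 (-0.37 ± 0.07, adjusted p = 0.0052, 0.082 without control replicate 1). The falls numbered 0, 1, 1 and 6 and the rises 1, 1, 1 and 1 in turn without control replicates 1 and 2 and Jmjd2a-labelled replicates 1 and 2.

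Of the genes of cholesterol synthesis and uptake, 15 of 20 fell. Hmgcs1, which makes HMG-CoA, read 12.14 and 12.18 in the control and 11.92 and 11.84 in the Jmjd2a-labelled replicates (-0.28 ± 0.04, 82.4% of control, adjusted p = 0.0013). Fdft1, squalene synthase, read 9.89 and 9.97 in Jmjd2a-labelled cells and 10.31 and 10.32 in controls (-0.39 ± 0.06, adjusted p = 0.0016). Hsd17b7, of the later sterol steps, read 9.36 and 9.33 in controls and 8.91 and 8.82 in Jmjd2a-labelled cells (-0.48 ± 0.08, adjusted p = 0.0023). Idi1, isopentenyl diphosphate isomerase, read 11.58 and 11.67 on the Jmjd2a-labelled against 11.93 and 11.91 on the control arrays (-0.30 ± 0.05, adjusted p = 0.0024). All 4 passed without any single array of the comparison, but with no intensity trend in the model Hmgcs1 and Idi1 no longer did (adjusted p of 0.076 and 0.07). Of 20 measured genes 15 fell and 0 rose, with a median of -0.34, and 7, 5, 6 and 10 fell in turn without control replicates 1 and 2 and Jmjd2a-labelled replicates 1 and 2. The sterol response element TCACNCCAC, on either strand, was in 1 of 16 promoter windows of these genes (6.25%) and in 1.44% of all.

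Several enzymes of glycolysis fell. Pgk1, phosphoglycerate kinase, read 12.61 and 12.62 in the control and 12.40 and 12.37 in the Jmjd2a-labelled replicates (-0.23 ± 0.03, adjusted p = 0.0016). Pgam1, phosphoglycerate mutase, read 11.07 and 11.10 in Jmjd2a-labelled cells and 11.39 and 11.35 in controls (-0.29 ± 0.04, adjusted p = 0.002). With no intensity trend neither passed, with adjusted p values of 0.14 for Pgk1 and 0.066 for Pgam1. Hk2, the inducible hexokinase, read 9.45 and 9.45 in controls and 9.02 and 9.02 in Jmjd2a-labelled cells (-0.43 ± 0.07, adjusted p = 0.0041, 0.053 without control replicate 1 and 0.056 without control replicate 2). Slc2a3, a glucose transporter, rose from 8.08 and 8.13 to 8.85 and 8.85 (0.74 ± 0.15, adjusted p = 0.0089, 0.088 without control replicate 1, 0.073 without control replicate 2 and 0.065 without Jmjd2a-labelled replicate 1). Of 18 measured genes 8 fell and 1 rose, with a median of -0.21, and the falls numbered 4, 2, 6 and 7 and the rises 0, 0, 0 and 1 in turn without control replicates 1 and 2 and Jmjd2a-labelled replicates 1 and 2. Of 34 subunits of oxidative phosphorylation 6 fell and 0 rose, with a median of -0.11, and 2, 0, 0 and 9 fell in turn without control replicates 1 and 2 and Jmjd2a-labelled replicates 1 and 2.

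A minority of the genes of amino acid supply and of the proteasome fell, 12 of 27 and 8 of 29. Psat1, of serine synthesis, read 10.14 and 10.26 on the Jmjd2a-labelled against 10.62 and 10.58 on the control arrays (-0.40 ± 0.06, adjusted p = 0.0016). Atf4, the factor that drives many genes of that list, rose from 11.43 and 11.40 to 11.57 and 11.66 (0.20 ± 0.05, adjusted p = 0.024, 0.12 without control replicate 1, 0.2 without control replicate 2 and 0.12 without Jmjd2a-labelled replicate 2). Of 27 measured genes 12 fell and 2 rose, with a median of -0.19. The falls were 1, 1, 2 and 11 and the rises 0, 0, 3 and 0 in turn without control replicates 1 and 2 and Jmjd2a-labelled replicates 1 and 2. Psma5, of the proteasome core, read 12.31 and 12.31 in the control and 11.94 and 12.08 in the Jmjd2a-labelled replicates (-0.30 ± 0.05, adjusted p = 0.0023), and Psmd14, the deubiquitinase of its lid, read 12.21 and 12.26 in Jmjd2a-labelled cells and 12.47 and 12.45 in controls (-0.23 ± 0.04, adjusted p = 0.0029). Neither passed with no intensity trend (adjusted p of 0.076 for Psma5 and 0.14 for Psmd14). Of 29 proteasome genes 8 fell and 0 rose, with a median of -0.16, and 2, 2, 2 and 8 fell in turn without control replicates 1 and 2 and Jmjd2a-labelled replicates 1 and 2.

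Genes of the secretory pathway and unfolded protein response were mixed. Eif2ak3, the stress sensor PERK, read 8.73 and 8.74 in controls and 9.97 and 9.44 in Jmjd2a-labelled cells (0.97 ± 0.15, adjusted p = 0.0021). Dnajb9, a co-chaperone induced by Xbp1, read 9.41 and 9.67 on the Jmjd2a-labelled against 8.73 and 8.71 on the control arrays (0.82 ± 0.14, adjusted p = 0.0036). Hyou1, a chaperone of the endoplasmic reticulum, fell from 9.44 and 9.58 to 9.02 and 8.98 (-0.51 ± 0.08, adjusted p = 0.0021, 0.051 without control replicate 2). The list gave 4 rises and 2 falls of 28, with a median of -0.08, with 4, 2, 2 and 3 rises and 1, 0, 1 and 2 falls in turn without control replicates 1 and 2 and Jmjd2a-labelled replicates 1 and 2.

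Repair genes that act in class switching and somatic hypermutation gave 3 falls of 18, with a median of -0.19. Ung, the uracil glycosylase that processes deaminated cytosine, read 9.78 and 9.78 in the control and 9.12 and 9.30 in the Jmjd2a-labelled replicates (-0.58 ± 0.08, 66.9% of control, adjusted p = 0.0012). Apex1, the abasic endonuclease, fell from 11.64 and 11.68 to 11.27 and 11.17 (-0.44, adjusted p = 0.01, 0.07 without control replicate 1, 0.1 without control replicate 2 and 0.061 without Jmjd2a-labelled replicate 2). The falls numbered 1, 1, 2 and 1 in turn without control replicates 1 and 2 and Jmjd2a-labelled replicates 1 and 2.

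With day 3 control replicate 2 left out of the model, the differences of day 1 are the same and only their estimated spread changes, and the calls of other lists moved by more than 1.5 times. The falls became 24 for ribosome biogenesis, 16 for the proteasome, 13 for translation initiation, 10 for oxidative phosphorylation, 8 for heat-shock genes and 6 for class switch repair. They became 4 each for the demethylases and the secretory pathway, 3 for the Egr group, 2 each for AP-1 genes, kinase inhibitors, ribosomal proteins and splicing factors, and 1 each for the CD40, Bcl2 and S100 lists. The rises became 8 for B cell and plasma cell factors, 4 for splicing factors, 2 for cohesin and 1 for neutrophil markers.

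**Figure D3:**
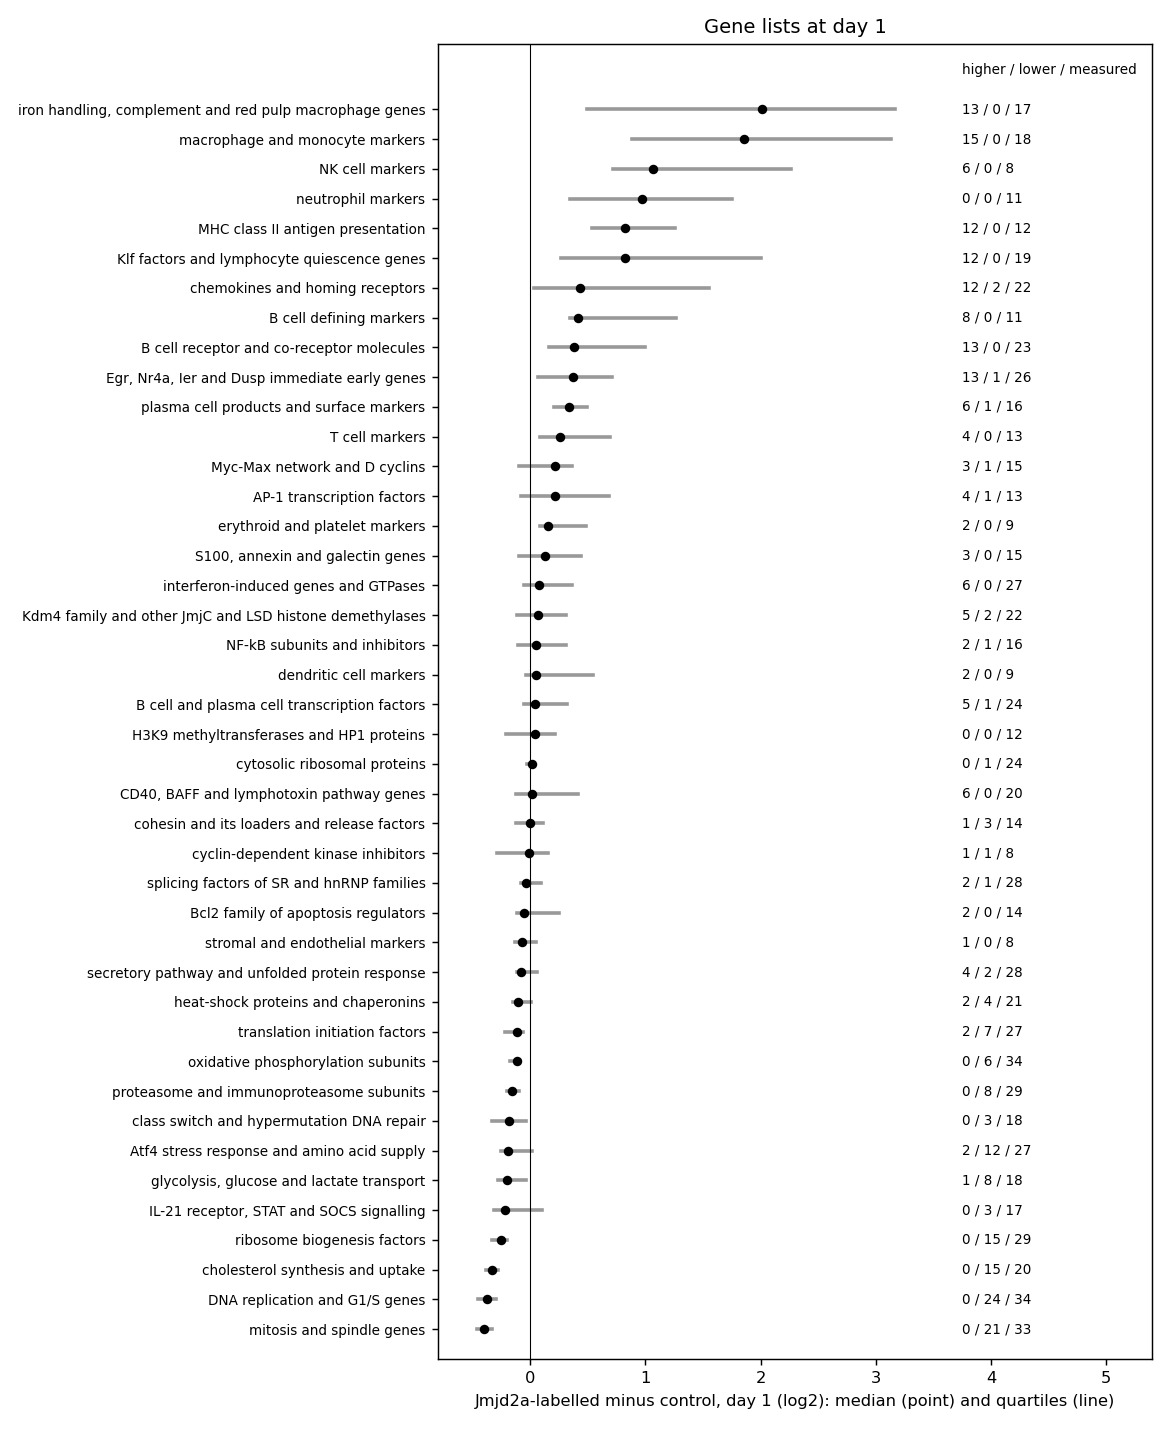
Median (point) and quartiles (line) of the Jmjd2a-labelled minus control difference at day 1 (log2, x axis) over the measured genes of each of 42 lists, with counts of genes higher, lower and measured at the right. Iron handling, macrophage, NK, neutrophil, class II and quiescence genes have the highest medians, from 2.01 down to 0.82, and mitosis, DNA replication, cholesterol synthesis and ribosome biogenesis the lowest, from -0.40 to -0.25. Some lists share genes, such as Vcam1 and C1qa of the iron handling and macrophage lists.

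Other histone demethylases changed in part. Kdm7a, which acts on H3K9 and H3K27, read 8.99 and 8.71 in Jmjd2a-labelled cells and 7.48 and 7.44 in controls (1.39 ± 0.17, 2.63-fold, adjusted p = 0.00048). Jmjd1c read 9.98 and 9.93 in controls and 10.50 and 10.48 in Jmjd2a-labelled cells (0.54 ± 0.08, adjusted p = 0.0018). Kdm3b, an H3K9 demethylase, read 9.86 and 9.64 on the Jmjd2a-labelled against 9.38 and 9.34 on the control arrays (0.39, adjusted p = 0.011, 0.08 without control replicate 1, 0.12 without control replicate 2 and 0.11 without Jmjd2a-labelled replicate 1). Kdm2b, of a variant Polycomb complex, fell from 11.11 and 11.01 to 10.71 and 10.77 (-0.32, adjusted p = 0.018, 0.19 without control replicate 1, 0.068 without control replicate 2 and 0.13 without Jmjd2a-labelled replicate 1). Of 22 measured demethylases, including the Kdm4 genes, 5 rose and 2 fell, with a median of 0.07, and 2, 2, 2 and 6 rises and 0, 0, 0 and 1 falls were left in turn without control replicates 1 and 2 and Jmjd2a-labelled replicates 1 and 2. Of 12 methyltransferases of H3K9 and their partners none passed by limma over all 12 arrays, where 7.47% of all probe sets did. The median was 0.04. In a list of 12 genes a count of 0 is not far from that share. Without day 3 control replicate 2 in the model, 3 of them rose and 2 fell.

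Macrophage and NK cell markers were higher on the Jmjd2a-labelled arrays, 15 of 18 and 6 of 8, while most markers of T, dendritic and stromal cells and neutrophils did not pass. Among probe sets of a single gene the largest rise was that of Vcam1, an adhesion molecule of stroma and red pulp macrophages, at 2.93 and 3.23 in the control and 9.47 and 9.60 in the Jmjd2a-labelled replicates (6.46 ± 0.25, 87.9-fold, adjusted p = 6.4e-08). Its control values lay below the array medians, so the fold rests on a dim level, and 2 of its 3 probe sets rose past the test. Csf1r, the receptor that defines macrophages, read 9.98 and 10.30 in Jmjd2a-labelled cells and 5.72 and 5.70 in controls (4.43 ± 0.29, 21.5-fold, adjusted p = 3.6e-06). Mrc1, the mannose receptor, read 3.72 and 3.64 in controls and 7.39 and 7.97 in Jmjd2a-labelled cells (3.999 ± 0.35, adjusted p = 3.4e-05). C1qa, of the first complement component, read 8.41 and 8.79 on the Jmjd2a-labelled against 4.75 and 4.65 on the control arrays (3.90 ± 0.31, adjusted p = 1.7e-05).

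Of 18 measured macrophage and monocyte markers 15 rose and 0 fell, with a median of 1.86, and the mean level of the list was 5.74 and 5.76 on the control arrays and 7.79 and 8.19 on the Jmjd2a-labelled arrays. The number that rose was 11, 9, 15 and 11 in turn without control replicates 1 and 2 and Jmjd2a-labelled replicates 1 and 2. Slc40a1, the iron exporter of red pulp macrophages, read 4.83 and 4.59 in the control and 9.15 and 9.55 in the Jmjd2a-labelled replicates (4.64 ± 0.29, adjusted p = 2.3e-06). Of 17 genes of iron handling, complement and red pulp macrophages, 13 rose and 0 fell, with a median of 2.01. Vcam1, C1qa, C1qb and C1qc are on this list and on the macrophage list, so both counts include them.

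NK cell markers gave 6 rises of 8, with a median of 1.07 and mean list levels of 4.94 and 5.13 on the control and 6.71 and 6.17 on the Jmjd2a-labelled arrays. Gzma, a granzyme, read 9.43 and 8.39 in Jmjd2a-labelled cells and 5.83 and 6.36 in controls (2.81 ± 0.27, adjusted p = 7.9e-05), and Klrd1, a chain of NK receptors, read 4.66 and 4.65 in controls and 7.78 and 6.96 in Jmjd2a-labelled cells (2.72 ± 0.29, adjusted p = 0.00016). Their rises numbered 4, 5, 4 and 6 in turn without control replicates 1 and 2 and Jmjd2a-labelled replicates 1 and 2. T cell markers gave 4 rises of 13, with a median of 0.26 and list levels of 5.42 and 5.44 against 5.88 and 5.74, and 1, 1, 1 and 4 rose in turn without control replicates 1 and 2 and Jmjd2a-labelled replicates 1 and 2. Cd3e, which defines T cells, read 5.91 and 5.66 on the Jmjd2a-labelled against 5.65 and 5.87 on the control arrays (0.03, adjusted p = 0.96).

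Erythroid and platelet markers gave 2 rises of 9 (median 0.16, list levels 4.77 and 4.85 against 5.58 and 5.43), led by Slc4a1, the anion exchanger of red cells, at 4.33 and 4.12 in the control and 8.31 and 7.95 in the Jmjd2a-labelled replicates (3.91 ± 0.23, adjusted p = 1.5e-06).

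Adult globins gave the largest rise of all probe sets. The annotation assigns these probe sets to 2 or more near-identical globin genes, so that no single gene can be credited, and they were picked out after their values were seen. Of the 3 probe sets shared by the alpha globins Hba-a1 and Hba-a2, the one that differed most went from 5.74 and 5.77 in controls to 12.99 and 13.12 in Jmjd2a-labelled cells (7.30, 157-fold, adjusted p = 3.1e-09). The other 2 differed by 6.41 and 5.81. The erythroid list holds Hba-a1 by a dim probe set of its own, which did not pass (0.03, adjusted p = 0.95). The shared probe set of the adult beta globins read 8.42 and 8.52 in controls and 12.99 and 12.98 in Jmjd2a-labelled cells (4.52, adjusted p = 1.4e-08). Globins are made by red cell precursors and their mRNA persists in young red cells. At day 3 the same alpha globin probe set was lower on the Jmjd2a-labelled arrays (-1.37, adjusted p = 0.00039), with 8.91 and 8.41 in the day 3 controls.

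Dendritic cell markers gave 2 rises of 9 (median 0.05, levels 6.03 and 6.002 against 6.24 and 6.34). Stromal and endothelial markers gave 1 of 8 (median -0.07, levels 4.71 and 4.83 against 4.98 and 4.97), and that 1 gene, Pecam1, read 7.30 and 6.57 in Jmjd2a-labelled cells and 4.60 and 4.85 in controls (2.21 ± 0.20, adjusted p = 5e-05).

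B cell markers rose on the same arrays, with 8 of 11 higher, 0 lower, a median of 0.41 and list levels of 10.36 and 10.33 against 11.23 and 10.94. Cd79a, Cd79b, Ms4a1 and Cd22 are also on the receptor list given above. Ms4a1, Cd79b and Ighm, which define B cells, were above the array median on all 4 arrays. The part that other cell types have in the rises of class II, homing and quiescence genes was not tested.

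**Figure D4:**
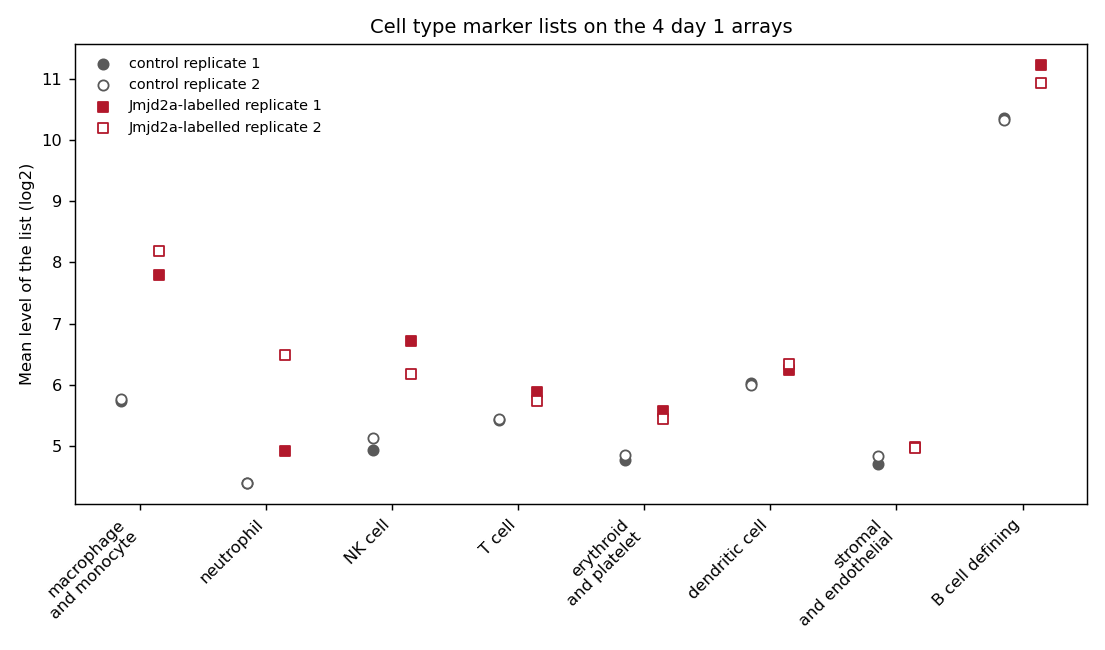
Mean level (log2, y axis) of each marker list on the 4 arrays of day 1. Circles are control and squares Jmjd2a-labelled arrays, filled for replicate 1 and open for replicate 2. The macrophage and NK lists are above control on both Jmjd2a-labelled arrays, and the neutrophil list chiefly on replicate 2, at 6.49 against 4.91 on replicate 1.

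The Jmjd2a-labelled replicates differed from each other in neutrophil genes. By at least 1 log2 unit, 64 probe sets were higher in replicate 2 and 51 in replicate 1, against 1 and 1 between the controls. S100a9, a calcium-binding protein of neutrophil granulocytes, read 4.81 and 4.80 in controls and 6.52 and 10.54 in Jmjd2a-labelled cells, and S100a8, its partner, read 6.61 and 10.42 on the Jmjd2a-labelled against 4.63 and 4.61 on the control arrays. Ngp, a granule protein, read 4.49 and 4.74 in the control and 5.27 and 8.18 in the Jmjd2a-labelled replicates. Replicate 2 was the higher by 4.02, 3.82 and 2.91 in these genes, which did not pass (adjusted p of 0.13, 0.097 and 0.24). With array weights S100a9 and S100a8 did pass (adjusted p of 0.041 and 0.026). On the Jmjd2c-labelled arrays of day 1, S100a9 read 6.49 in replicate 1 and 11.58 in replicate 2. Chil3, Cxcl2, Clec4d, Lcn2 and Abcb1a complete the 8 genes of largest such difference, all higher in replicate 2. Of 11 neutrophil markers 0 passed, with a median of 0.97. Without Jmjd2a-labelled replicate 1 the median was 1.88 and 1 rose, and without replicate 2 it was 0.31.

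Of the 24 largest rises, the genes not yet named include several of the same cell types. Adgre4, a receptor of macrophages, read 7.36 and 7.32 in Jmjd2a-labelled cells and 2.98 and 3.11 in controls (4.30 ± 0.25, adjusted p = 1.5e-06). Rasgrp2, an activator of Rap1 in lymphocytes, read 4.99 and 5.04 in controls and 9.23 and 8.15 in Jmjd2a-labelled cells (3.67 ± 0.28, adjusted p = 1.3e-05). Cd55, which protects cells from complement, read 9.80 and 9.25 on the Jmjd2a-labelled against 5.91 and 5.93 on the control arrays (3.61 ± 0.16, adjusted p = 2.1e-07), and Cd36, a scavenger receptor, read 5.80 and 5.98 in the control and 9.98 and 8.88 in the Jmjd2a-labelled replicates (3.54 ± 0.31, adjusted p = 3.6e-05). C1qb, Mirt1, Frmd4b, Acp5, Ackr3, Spic and Hpgd, and another probe set of Hspa1b than the one given above, complete the 24, with differences of 3.53 to 5.14. For 23 of the 24 genes the brightest own probe set also rose past the test. The exception was Frmd4b, at -0.08 by its brightest probe set (adjusted p = 0.82). The brightest was chosen over all arrays, those with the rise included.

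Most of the 24 largest falls came from a probe set other than the brightest of the gene. Kif11, a mitotic kinesin, read 5.94 and 5.83 in Jmjd2a-labelled cells and 7.33 and 7.08 in controls (-1.32 ± 0.15, adjusted p = 0.00023) and fell by all 3 of its probe sets, the brightest at -0.39. Gsdme, a pore-forming gasdermin, read 7.95 and 7.95 in controls and 6.91 and 6.96 in Jmjd2a-labelled cells (-1.01 ± 0.11, adjusted p = 0.0002) on its brightest probe set. Smc1a, a cohesin subunit, read 7.83 and 7.79 on the Jmjd2a-labelled against 8.88 and 8.65 on the control arrays on the probe set that fell (-0.96 ± 0.11, adjusted p = 0.00035), while its brightest gave -0.14 (adjusted p = 0.25). Srsf11, a splicing factor, read 7.16 and 7.04 in the control and 6.27 and 6.09 in the Jmjd2a-labelled replicates (-0.92 ± 0.16, adjusted p = 0.0035, 0.052 without control replicate 1), while its brightest gave 0.11 (adjusted p = 0.35).

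Only 5 of the 24 falls were the brightest probe set of their gene, against 20 of the 24 rises, and for 14 of the 24 the brightest also fell past the test. Of the 21 genes with more than 1 probe set, 10 had at least 2 that fell, against 14 of 15 among the rises. The median difference by the brightest probe set was -0.37 for the falls and 3.90 for the rises. The brightest was chosen over all arrays, so a large rise can make a probe set the brightest and a large fall makes it dimmer. For Vcam1 the chosen probe set had a control mean of 3.08, while another of its probe sets had 5.39. The contrasts by brightest probe set therefore cannot decide whether rises are better supported than falls. The other 8 falls whose brightest probe set did not pass were Eml4, Msi2, Lman1, Immt, Phip, Mastl, Kdm5c and Twsg1, with values from -0.31 to 0.04. In all, 9010 genes had at least 2 probe sets of their own, 501 had at least 2 that passed, 498 of these in 1 direction, and 3 (Cds2, Prpf38a and Ptp4a2) in both. How far transcript forms or probe quality account for such differences was not tested. The calls of Kif11, Cldnd1, Gsdme, Hells, Smc1a, Eml4, Msi2, Hnrnpab, Ifitm2 and Stard4 held without any single array of the comparison, as did those of all 24 rises. Hells lay just under the threshold without control replicate 1, at an adjusted p that rounds to 0.05. The calls of the other 14 falls (Phip, Srsf11, Rad54b, Cep55, Dtl, Lman1, Rmi2, Immt, Preb, Seh1l, Mastl, Mettl1, Kdm5c and Twsg1) were lost without at least 1 array, with adjusted p values from 0.052 to 0.24. Without control replicate 1, 13 were lost, without control replicate 2, 11, without Jmjd2a-labelled replicate 1, 9, and without Jmjd2a-labelled replicate 2, 5.

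Jmjd2c-labelled arrays of day 1, set against the same controls, gave 4961 calls (11%), of which 2397 were higher (5.32%) and 2564 lower (5.69%), and the shared controls tie both comparisons together. Fos differed by 5.35 on the Jmjd2a-labelled and by 5.65 on the Jmjd2c-labelled arrays, Ltb by 4.99 and 5.29, Csf1r by 4.43 and 4.84, Kif20a by -0.70 and -0.66, and Ung by -0.58 and -0.52. Tested directly, with no control arrays in the contrast, 0 of 45037 probe sets differed between the 2 labels by limma (0%), and 1081 did at an unadjusted p under 0.05 (2.4%). Without Jmjd2a-labelled replicate 1, 6 differed. Kdm4a differed by -0.08 and Kdm4c by 0.04 between them. The share of 2.4% is lower than a cut at 0.05 gives by itself where nothing differs. Same-numbered arrays of both labels deviated together (0.39), which this contrast does not model. That no probe set passed does not show that the arrays are alike.

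Many of these differences were smaller or of opposite sign at day 3, and the closeness of those day 3 arrays to the day 1 controls bears on each value of that day. The Jmjd2a-labelled difference at day 3 minus that at day 1 passed for 8264 of 45037 probe sets (18.3%), 5401 of them higher (12%) and 2863 lower (6.36%). These 2 differences share no array, but the contrast subtracts the day 1 difference. Genes named for a large day 1 difference are pushed by that choice toward a contrast of opposite sign. Their contrasts are therefore a description and not separate support. Fos went from 5.35 at day 1 to 1.53 at day 3 (difference -3.82, adjusted p = 2e-06). Fcer2a went from 4.96 to -0.05 (-5.01, adjusted p = 2.1e-06) and Ltb from 4.99 to 0.60 (-4.39, adjusted p = 5.2e-06). Vcam1 went from 6.46 to -1.79 (-8.25, adjusted p = 2.4e-07). Hspa1b, by the probe set among the largest rises, went from 4.67 to 3.04 and did not pass (-1.63, adjusted p = 0.18).

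Among lists, mitosis was lower on both days, and ribosome biogenesis turned. The mitotic list had medians of -0.40 at day 1 and -0.87 at day 3, with 32 of 33 genes lower at day 3, where 7.11% of all probe sets were lower and 13.7% higher (20.8% in all), and 16 differing between days, all toward a larger fall. Ribosome biogenesis factors went from -0.25 to 0.69, with 28 of 29 higher in the test between days. DNA replication genes went from -0.38 to 0.33, with 28 of 34 higher. Class II genes went from 0.82 to -0.16, with all 12 lower, and macrophage markers from 1.86 to -1.16, with 17 of 18 lower. Of the 34 pathway lists, 24 had medians of opposite sign on the 2 days.

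**Figure D5:**
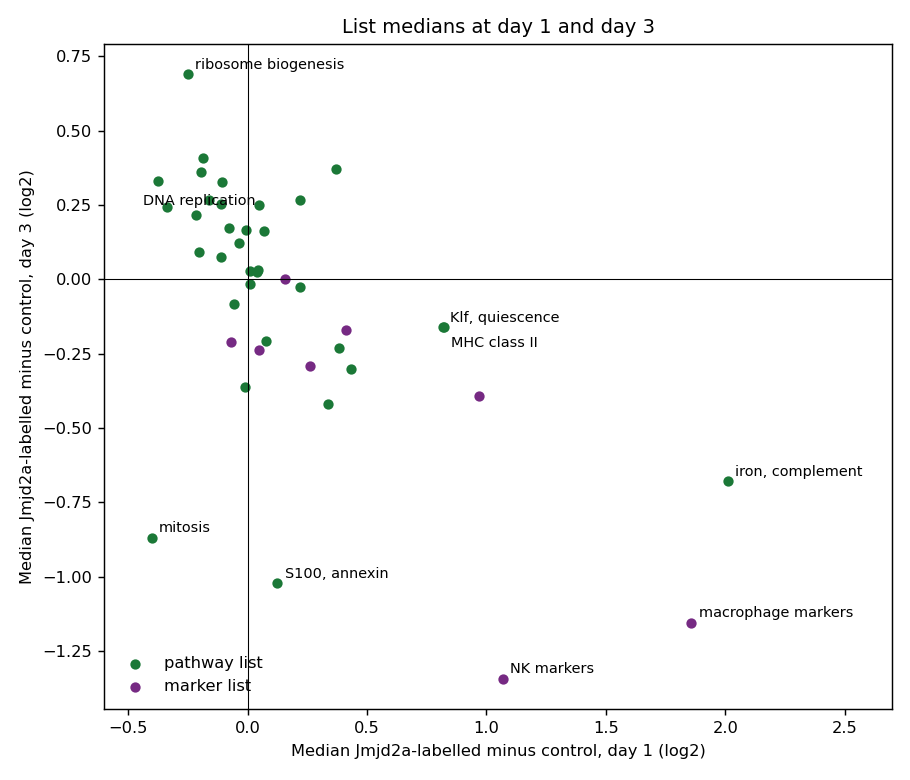
Median Jmjd2a-labelled minus control difference of each gene list at day 1 (x axis, log2) and day 3 (y axis, log2), with pathway lists in green and marker lists in purple. Mitosis lies at the lower left, at -0.40 and -0.87, ribosome biogenesis at the upper left, at -0.25 and 0.69, and the macrophage list at the lower right, at 1.86 and -1.16.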

How the data were processed

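Total RNA of 12 samples (6 groups of 2) was hybridised to Affymetrix mouse genome arrays. The log2 values analysed are those deposited by the authors, 1 per probe set and array, and their summarisation and normalisation were not given in the sources used here. No scanner files were used, so detection and depth are unknown and the number of arrays limits precision. Groups came from the sample titles. Of 45101 probe sets 64 platform controls were left out, 34945 had 1 gene symbol, 932 several and 9160 none in a dated platform annotation, and 18193 genes had a probe set of their own.

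One limma model with a mean for each of 6 groups was fitted to all arrays (lmFit, eBayes with intensity trend, 6 residual and 5.85 prior degrees of freedom), with Benjamini-Hochberg adjustment over 45037 probe sets. R 4.3.3, limma 3.58.1, Python 3.11.15 and matplotlib 3.10.9 were used. Simulated data held 67 probe sets changed 1.5-fold, 67 changed 2-fold and 66 changed 4-fold. The model found 31.3%, 71.6% and 98.5% of these in turn, with 10 false calls among 45037 probe sets. The simulated noise was independent, with 1 SD per probe set for all groups, while replicate SDs of the groups ran from 0.115 to 0.259. In the data 3366 probe sets passed. These settings differ, so the rates do not measure the sensitivity or error rate of this comparison. The members and the 42 gene lists (34 pathway, 8 marker; 858 genes, 789 measured) were chosen with earlier results of these data known. Genes named by rule were the Kdm4 genes, the 24 largest rises and 24 largest falls of single-gene probe sets with groups that do not overlap and a mean above the median in the higher group, up to 4 members of each list with the smallest p, members whose role the text needs, and the 8 genes that differ most between Jmjd2a-labelled replicates. Fos and Bub1 promoters followed from the rule, and those of Hspa1b, H2-Ob and Kif2c were chosen after their values were seen. Promoter windows were read from a RefSeq table and searched for exact letters on both strands.

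Alternatives were quantile normalization, median centring, leaving out dim probe sets, no trend, array weights, 1 probe set per gene, another threshold, a fold limit, a replicate block, fewer arrays and leaving out each array.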

Additional observations from a re-analysis of the deposited data

Results flagged for a closer look

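The Jmjd2a-labelled difference from control was not the same on both days for 8264 probe sets, by the limma contrast of day 3 minus day 1 at an adjusted p under 0.05. Among the 8 largest rises of day 1, the contrast passed for Vcam1 (-8.25), C1qb of the complement (-7.18), Slc40a1, the iron exporter (-6.08), Csf1r, the macrophage receptor (-5.72), Fcer2a (-5.01), Ltb (-4.39) and Fos (-3.82), each lower at day 3 than at day 1. Of the 8 largest falls of day 1 it passed for 5. These were Hells, a chromatin remodeller (-1.003 at day 1 and 0.83 at day 3, contrast 1.84), Cldnd1 (1.59), Eml4, a microtubule protein (1.49), Gsdme (1.30) and Phip (1.28), each higher at day 3 than at day 1. The named probe set is the brightest of its gene for Gsdme, and by the brightest probe sets Phip and Eml4 did not pass at day 1. Day 3 control replicate 2 stood apart from replicate 1, and leaving that array out gave 9207 probe sets, while leaving out each array of day 1 gave between 5539 and 7130. These genes were chosen by their day 1 difference, which the contrast subtracts, so the choice by itself favours a contrast of opposite sign. Whether the day 3 samples carry the right labels was not tested.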

How the results depend on the processing

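The count of probe sets higher at day 1 (1904) was 3092 with array weights, 1208 with 1 probe set per gene, 3134 without day 3 control replicate 2 in the model, and 845 to 1825 without each array of the comparison. The count lower (1462) was 648 with no intensity trend, 3286 with array weights, 2367 at an adjusted p under 0.10, 134 with a limit of 1.5-fold, 3570 without day 3 control replicate 2, and 198 to 1119 without each array. Between the Jmjd2a and Jmjd2c labels the count was 0 to 6 without each array. For day 3 minus day 1 it was 4684 with 1 probe set per gene, 9207 without day 3 control replicate 2 and 5539 to 7130 without each day 1 array. Kdm4a did not pass under any alternative run, with differences of 0.03 to 0.18. The setting with 1 probe set per gene tested 18193 probe sets and not 45037. Its counts of 1208 and 4684 are of that smaller total, and a lower count there need not be a lower share. The causes were not tested. Quantile normalization, median centring and the other settings left the median of all probe sets between -0.05 and -0.04.

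Over the alternatives run for the other 167 genes named, 2445 values kept their direction and side of the threshold, 170 no longer passed, 9 newly passed and 16 turned sign, each of these in a gene that did not pass. Without each array of the comparison in turn, the lowest and highest differences of the genes concerned were -0.096 to 0.15 for Cd3e, -0.0037 to 0.090 for Cd40, -0.093 to 0.31 for Dnajb1, -0.18 to 0.24 for Egr1, -0.055 to 0.11 for Hba-a1, -0.036 to 1.97 for Lcn2, -0.20 to 0.22 for Pax5, -0.23 to 0.16 for Prdm1 and -0.088 to 0.16 for Stat3. With quantile normalization Pax5 gave -0.053. The medians of lists that turned sign ranged, without each array, from -0.045 to 0.071 for H3K9 methyltransferases, -0.12 to 0.037 for Bcl2 genes, -0.11 to 0.0077 for kinase inhibitors, -0.047 to 0.058 for cohesin genes, -0.0044 to 0.024 for ribosomal proteins and -0.0058 to 0.18 for S100 genes. The median of kinase inhibitors was 0.0035 without dim probe sets, and that of cohesin genes 0.0083 with quantile normalization. The cause was not tested. With no intensity trend, genes named with a call that no longer passed were, beside those given with their values, Apex1, Atf4, Batf, Ccnd2, Dkc1, Egr2, Hspd1, Kdm2b, Pou2af1, Preb, Rps6, Sdc1, Socs3, Spib and Twsg1 (adjusted p from 0.053 to 0.21).

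Replicate numbers were not taken to pair control and Jmjd2a-labelled samples, whose same-numbered arrays had deviations correlating at 0.04. Between the Jmjd2a and Jmjd2c labels of day 1 same-numbered arrays did deviate together (0.39). A replicate block, which fits 1 shift common to all groups, was also run. With it 2049 were higher, 1487 lower, 0 differed between labels and 8317 between days, and Kdm4a differed by 0.11. With 2 arrays a group and unknown summarisation, small differences at dim probe sets are poorly resolved, and values of different probe sets have no common scale.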

Other observations

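Among apoptosis regulators of the Bcl2 family, 2 of 14 rose and 0 fell at day 1, with a median of -0.06, and 0, 0, 1 and 2 rose in turn without control replicates 1 and 2 and Jmjd2a-labelled replicates 1 and 2. Interferon-response genes gave 6 rises and 0 falls of 27, with a median of 0.08, and 1, 1, 2 and 3 rises in turn without control replicates 1 and 2 and Jmjd2a-labelled replicates 1 and 2. Rsad2, an antiviral enzyme, read 7.999 and 8.39 in Jmjd2a-labelled cells and 6.90 and 6.74 in controls (1.37 ± 0.13, adjusted p = 8.4e-05). Splicing factors gave 2 rises and 1 fall of 28, with a median of -0.04 and 1, 0, 1 and 1 rises and 0, 0, 0 and 1 falls in turn without control replicates 1 and 2 and Jmjd2a-labelled replicates 1 and 2.

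Cohesin and its loaders and release factors gave 1 rise and 3 falls of 14, with a median of -0.01, and 0, 0, 0 and 2 rises and 0, 0, 1 and 2 falls in turn without control replicates 1 and 2 and Jmjd2a-labelled replicates 1 and 2. Of S100, annexin and galectin genes 3 of 15 rose, with a median of 0.12, and 1, 1, 2 and 3 rose in turn without control replicates 1 and 2 and Jmjd2a-labelled replicates 1 and 2. Lgals8, a galectin, read 7.85 and 7.76 in controls and 9.05 and 8.91 in Jmjd2a-labelled cells (1.18 ± 0.09, adjusted p = 1.3e-05). At day 3 the S100 list had a median of -1.02, with 13 of 15 lower.

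Of 932 probe sets assigned to several genes, 74 were higher and 46 lower at day 1, where 4.23% of all probe sets were higher and 3.25% lower. Besides the globins, a probe set shared by Trf, the iron carrier transferrin, and Srprb read 4.07 and 4.67 in controls and 7.68 and 7.93 in Jmjd2a-labelled cells (3.43, adjusted p = 4.5e-05). A probe set shared by the Sirpb1 receptors of myeloid cells differed by 2.46 (adjusted p = 0.0032).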
